A study of Mus musculus with 6 samples.

Results

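The Ube2 genes encode the E2 enzymes that carry ubiquitin, or a protein related to it, from the activating enzyme to its target. All rows of the deposited table whose gene symbol starts with Ube2 were taken, which gave 32 genes of 11815. Of these, 30 are annotated as protein coding and 2, Ube2d-ps and Ube2n-ps1, as pseudogenes. RNA came from the gastrocnemius, a calf muscle, of wild-type (WT) mice and of mice without the long non-coding RNA lnc-ORA (KO). The KO mice carried a CRISPR deletion of 5147 bp that spans the lnc-ORA transcript, on a C57BL/6 background, and were 15 weeks old. An age for the WT mice was not given in the sources used here. Each genotype had 3 libraries, numbered 2, 3 and 4 for WT and 1, 2 and 3 for KO, and the study asked about the conversion of muscle fibre types. The deletion is present in the whole animal, and the labels do not say how many founder lines were kept or whether each library is 1 animal. The p-values therefore measure only the spread between these libraries, which may be technical. The level of lnc-ORA was not analysed here, so the genotype labels were taken as given.

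An activating enzyme, E1, first binds ubiquitin and hands it to an E2, and an E3 ligase then brings the loaded E2 to the protein to be marked. The E2 often sets which lysine of ubiquitin is used to build a chain, and so whether the chain leads to the proteasome or serves in signalling and DNA repair. In skeletal muscle this route breaks down contractile proteins during wasting, and the muscle ligases Fbxo32 and Trim63 are its usual markers.

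Levels are RPKM, which are reads scaled to the length of the gene and to the counted reads of the library. The libraries held 54370181 to 69693905 counted reads. The 10 most abundant genes took 45.1% to 49.1% of the reads in WT and 50.2% to 53.9% in KO, so the groups did not overlap in this share. All 6 muscle fibre markers (Acta1, Ckm, Myh4, Tnnt3, Tnnc2 and Mylpf) were present at 2255 RPKM or more in every library. Libraries of the same genotype differed from each other by more than sampling noise.

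Most Ube2 genes were expressed at low to moderate levels. By the mean over the 6 libraries, 4 members lay under 1 RPKM, 23 between 1 and 10, 4 between 10 and 100, and Ube2c above 10000. The median member stood at 3.33 RPKM, against 3.69 RPKM for the median of the 7574 tested genes. Apart from Ube2c, the highest was Ube2b, at 34.6 to 46.4 RPKM, followed by Ube2m, Ube2r2 and Ube2v1. The lowest was Ube2t, at 0.159 to 0.309 RPKM and 46 to 98 reads. A gene was tested when it reached 1 RPKM in at least 3 libraries, which 29 of the 32 members did. Ube2l6, Ube2w and Ube2t did not.

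**Figure D1:**
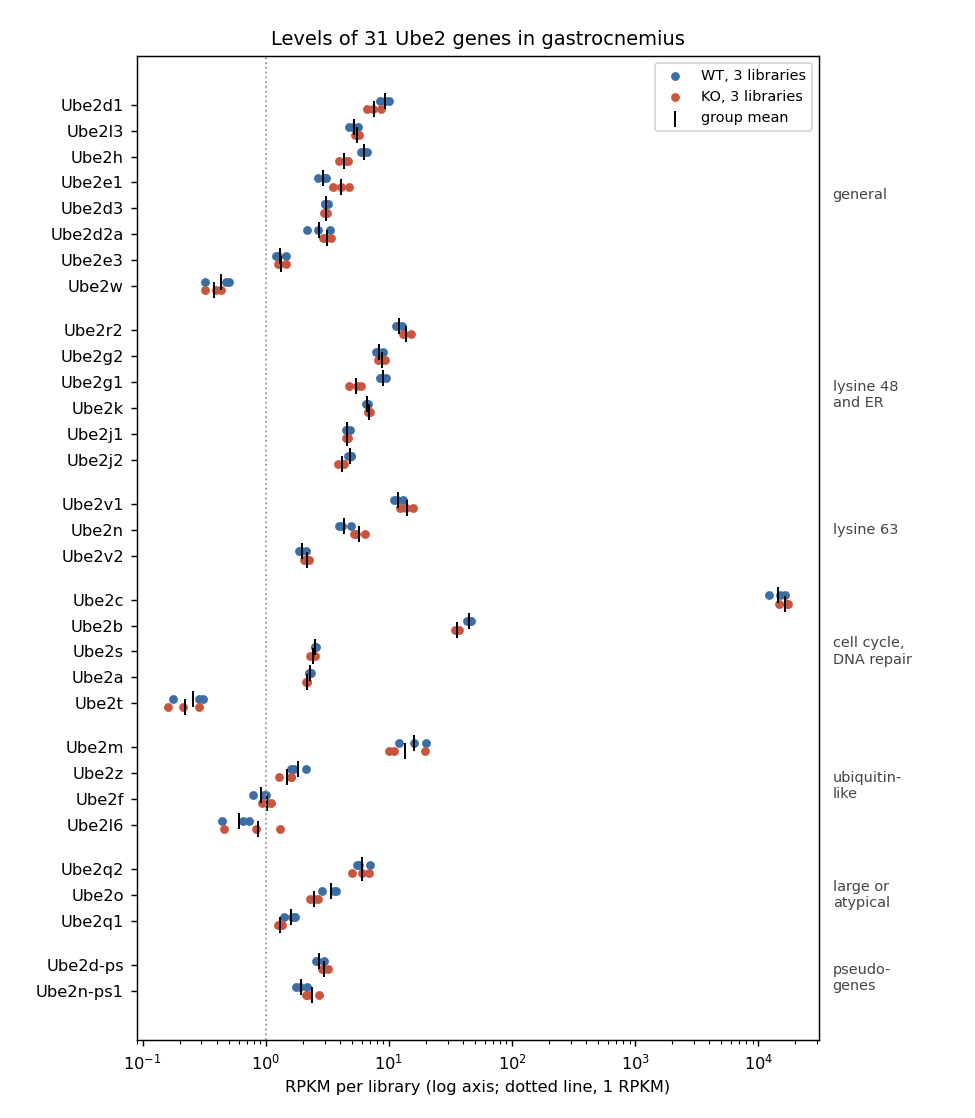
Each point is the RPKM (log axis) of 1 Ube2 gene in 1 library, in blue for WT and in red for KO, with a bar at each group mean and a dotted line at 1 RPKM, and genes are grouped by role. Ube2c stands above 10000 RPKM, far to the right of the other members drawn, none of which passes 46.4 RPKM.

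KO muscle had less RNA of 5 E2 genes and more of 1. Ube2g1, Ube2h, Ube2b and Ube2o were among those that fell, and Ube2e1 rose. Ube2g1 fell the most, to 60.8% of its WT mean. These 6 calls were made with limma on log2(RPKM + 1), at a Benjamini-Hochberg adjusted p under 0.05 over all tested genes. They are 6 of 29 tested members (20.7%), and over all tested genes 17.3% were called, so the share of members was near the background. The same holds by direction, since 13.5% of all tested genes were called lower and 3.83% higher. The median log2 fold change (KO minus WT) was -0.01 over the members, with 14 above 0 and 15 below, and -0.09 over all tested genes. At an unadjusted p under 0.05, 9 of 29 members passed, 2 higher and 7 lower, against 33.4% of all tested genes.

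The split of calls depended on how the libraries were scaled. With library medians made equal, 4 members were called, 2 higher (Ube2e1 and Ube2v1) and 2 lower (Ube2g1 and Ube2h), and over all genes 594 were called higher (7.84%) and 707 lower (9.33%), in place of 290 and 1021. With totals that leave out the 10 most abundant genes, Ube2c and Tnnc2 among them, 5 members were called. Ube2e1, Ube2n and Ube2v1 were higher and Ube2g1 and Ube2h lower. Over all genes 680 were called higher (8.98%) and 613 lower (8.09%). These scalings moved the median of all genes by 0.10 and 0.11 on the log2 scale. Relative to the median of all tested genes, Ube2g1 stood at -0.54 under the deposited scaling and at -0.52 under both others, and Ube2e1 at 0.46 under each of the 3 scalings.

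In 12 of the 29 tested members the 3 WT and 3 KO values did not overlap. Of these, 8 lay lower in KO (among them Ube2g1, Ube2h, Ube2b, Ube2j2, Ube2o, Ube2q1 and Ube2a) and 4 higher (Ube2e1, Ube2n, Ube2r2 and Ube2k). Over all tested genes 39.2% did not overlap, 30.0% lower in KO and 9.22% higher.

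**Figure D2:**
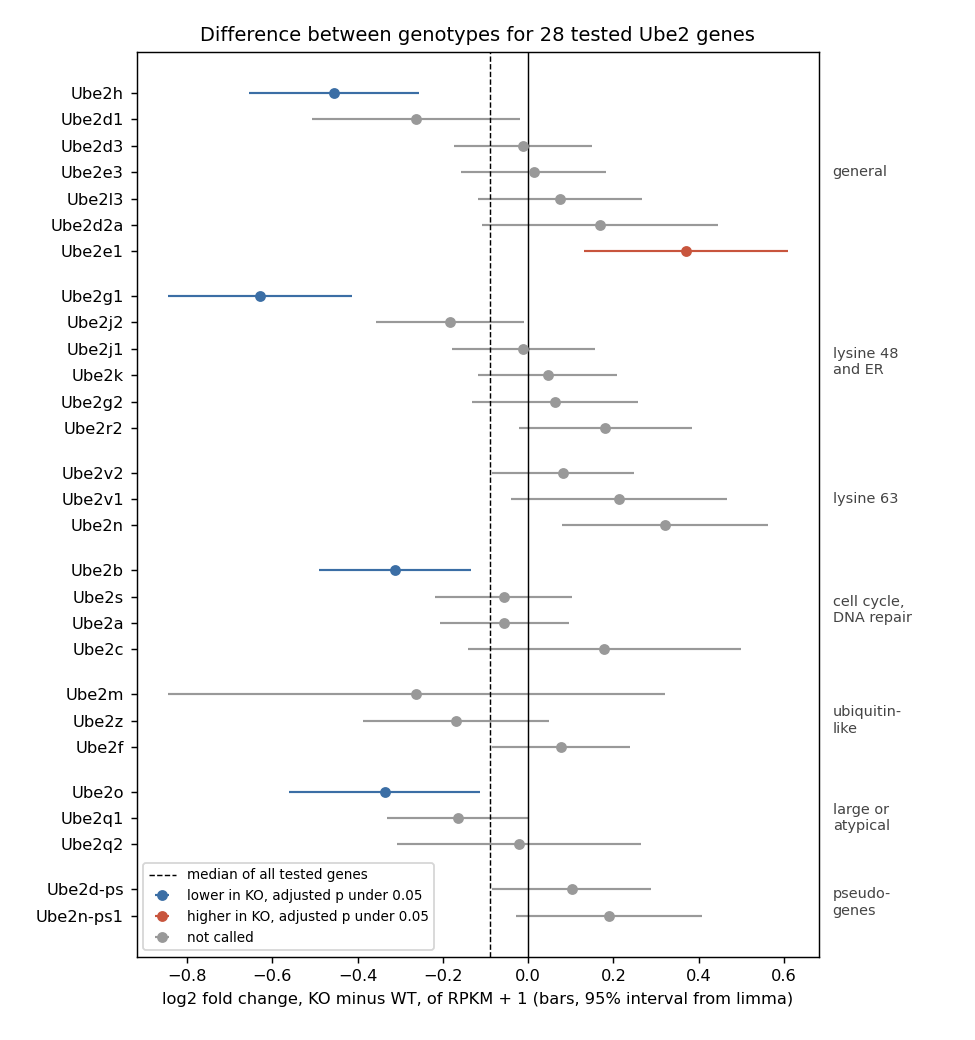
Points are limma's log2 fold changes of RPKM + 1 (KO minus WT) for 28 tested Ube2 genes, bars are 95% intervals, colours mark the calls, and the dashed line is the median of all tested genes. The 4 blue intervals lie wholly below 0 and the red one, Ube2e1, wholly above, while Ube2m has the widest interval.

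Markers of other cell types moved with genotype. The 5 Schwann cell markers in the table summed to 30.8 to 49.0 RPKM in WT and to 6.98 to 9.69 RPKM in KO, and all 4 that were tested were called lower. The 6 endothelial markers summed to 17.8 to 28.6 RPKM in WT and to 14.4 to 15.6 RPKM in KO, with 1 of 5 tested (Cldn5) called lower. Red blood cell, macrophage and satellite cell sums overlapped between the groups, and none of their tested members was called. No marker in the table was at 0 in any library. The part of these cells in the Ube2 differences was not tested, and in whole muscle fewer cells of a type and less RNA per cell cannot be told apart.

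The promoters of 4 called members with an entry in the RefSeq promoter table (GRCm38.p6) are shown because these genes are the ones that moved. Ube2o is named only. Each runs from 250 bases before the start of the gene to 50 after it, 5′ to 3′ on the gene's own strand. Capitals mark every match, on either strand, to the GC box GGGCGG, the CCAAT box, the core of the cyclic AMP response element TGACGT, the E-box CACGTG, the TATA box TATAAA and the forkhead motif GTAAACA. Ube2g1 is at chr11:72607011-72607310 on the plus strand, Ube2h at chr6:30304490-30304789 on the minus strand, Ube2b at chr11:52000737-52001036 on the minus strand and Ube2e1 at chr14:18331795-18332094 on the minus strand. Ube2h and Ube2b each have a second entry that is not printed.
Ube2g1: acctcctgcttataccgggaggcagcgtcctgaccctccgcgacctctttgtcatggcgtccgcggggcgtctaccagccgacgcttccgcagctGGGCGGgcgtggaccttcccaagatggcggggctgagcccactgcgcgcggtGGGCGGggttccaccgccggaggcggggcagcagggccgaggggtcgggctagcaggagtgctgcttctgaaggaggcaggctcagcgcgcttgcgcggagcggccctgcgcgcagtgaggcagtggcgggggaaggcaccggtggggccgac
Ube2h: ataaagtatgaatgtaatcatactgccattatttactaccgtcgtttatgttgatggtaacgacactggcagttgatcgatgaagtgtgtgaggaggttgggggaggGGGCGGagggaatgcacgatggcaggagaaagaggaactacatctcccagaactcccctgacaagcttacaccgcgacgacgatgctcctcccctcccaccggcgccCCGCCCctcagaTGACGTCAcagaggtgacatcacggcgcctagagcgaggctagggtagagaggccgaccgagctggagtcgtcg
Ube2b: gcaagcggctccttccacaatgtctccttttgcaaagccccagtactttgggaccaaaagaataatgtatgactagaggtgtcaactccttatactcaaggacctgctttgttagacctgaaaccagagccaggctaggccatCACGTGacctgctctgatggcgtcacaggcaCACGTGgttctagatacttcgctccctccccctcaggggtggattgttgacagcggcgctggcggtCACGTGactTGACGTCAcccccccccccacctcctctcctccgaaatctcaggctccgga
Ube2e1: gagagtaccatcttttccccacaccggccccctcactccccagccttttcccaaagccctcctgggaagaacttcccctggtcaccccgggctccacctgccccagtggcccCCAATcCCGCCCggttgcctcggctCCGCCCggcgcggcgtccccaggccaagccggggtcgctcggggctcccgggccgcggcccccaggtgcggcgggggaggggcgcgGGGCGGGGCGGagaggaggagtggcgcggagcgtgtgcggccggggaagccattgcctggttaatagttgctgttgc
Ube2g1 held 2 matches to GGGCGG and Ube2h also 2, and Ube2e1 held 4, of which 2 share a base, and 1 to CCAAT. This first Ube2b entry held none, but 3 matches to CACGTG. Ube2h and Ube2b both carried TGACGTCA, in which TGACGT matches on both strands and the matches overlap. Over all 24 members with an entry, and their 34 entries, GGGCGG was present in 26 entries (76.5%), against 35.7% of all 32851 promoters in the table. CCAAT was present in 6 entries (17.6%, against 37.4%), TGACGT in 5 (14.7%, against 7.51%), TATAAA in 3 (8.82%, against 13.6%), CACGTG in 2 (5.88%, against 7.15%) and GTAAACA in 1 (2.94%, against 3.65%). Base composition differed as well, with a median GC content of 68.8% over the member entries and 52.7% over all promoters. A match describes these letters only, and promoters of 1 gene can overlap.

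Ube2c, the E2 that starts chains for the anaphase-promoting complex in dividing cells, was the one member at an extreme level. It was listed at 12241, 14912 and 16435 RPKM in WT and at 17405, 14630 and 17097 RPKM in KO, and ranked 5 of all genes by reads. Its reads came to 2218091, 2107949 and 2800285 in WT and to 3109680, 2115219 and 2717843 in KO. The groups overlapped.

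These reads follow Tnnc2, the calcium-binding troponin C of fast fibres. Tnnc2 had 2219040, 2108692 and 2801131 reads in WT and 3110629, 2116289 and 2718788 in KO. Ube2c held 99.9494% to 99.9698% of the Tnnc2 number, only 743 to 1070 reads fewer in a library. The ratio of their RPKM lay between 0.307537 and 0.307599 in all 6 libraries. The log2 ratio of Ube2c to Tnnc2 differed between KO and WT by -4.5e-05 (exact permutation test, two-sided, p = 0.6). With 3 libraries a group this test cannot go below 0.10. Since both genes hold nearly the same count in each library, the ratio could hardly differ, and the test carries no weight. For the same reason the limma fit gave both genes the same log2 fold change, 0.18 (SE 0.14). Neither was called by limma (adjusted p = 0.399 for Ube2c and 0.415 for Tnnc2).

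The annotation shows where these genes meet. In GENCODE M21 (GRCm38), Ube2c lies at chr2:164769898-164778822 on the plus strand. The last exon of transcript Ube2c-201, exon 6, spans chr2:164777190-164778822 and codes only in its first 32 bases before the stop codon, with 3′ untranslated sequence after it. On the minus strand of the same stretch lies Tnnc2. Of the 700 exon bases of Tnnc2-201, 592 (84.6%) fall inside that Ube2c exon, with 4 of its 6 exons wholly inside and 1 partly. The other transcript, Ube2c-202, ends before this stretch. The first 28 bases of Tnnc2 exon 3, at chr2:164778060-164778087, show the overlap, each transcript written 5′ to 3′ from the GENCODE transcripts, and each is the reverse complement of the other.
Tnnc2-201 exon 3: agttcaaggctgcctttgacatgttcga
Ube2c-201 exon 6: tcgaacatgtcaaaggcagccttgaact
Whether the authors' counting used the strand was not given in the sources used here. Nearly the same number of reads was credited to both genes, which lie on opposite strands, so their reads cannot be told apart in this table. Other members share exon bases with a gene on the opposite strand, among them Ube2e1, Ube2l3 and Ube2s. Whether their counts hold reads of that gene was not tested. Mki67, the only one of 10 proliferation markers in the table, stood at 0.104 to 0.194 RPKM. The values listed for Ube2c are therefore given no reading as a level of this E2. Of the nearby annotated genes, Dnttip1 (-0.32, adjusted p = 0.0527), Gm11457 (-0.35, adjusted p = 0.0595) and Snx21 (-0.21, adjusted p = 0.0598) were not called.

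**Figure D3:**
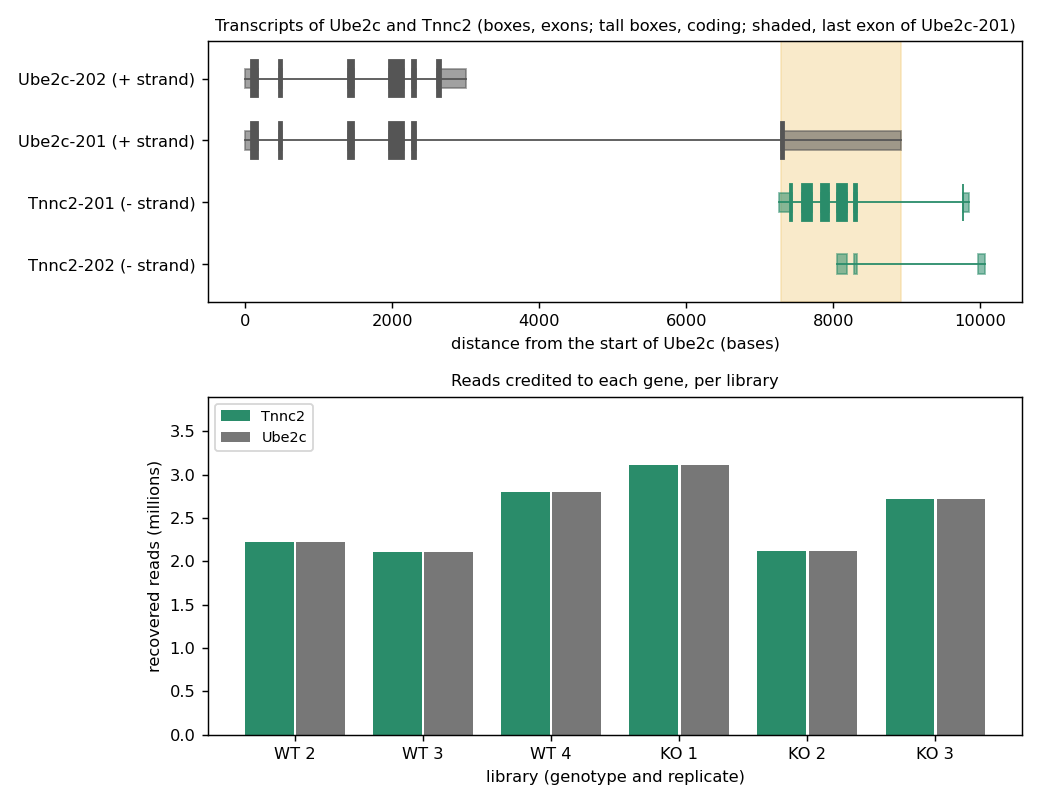
The upper panel draws the transcripts of Ube2c and Tnnc2 to scale by distance in bases from the start of Ube2c, with the last exon of Ube2c-201 shaded over most Tnnc2 exons; the lower panel gives the reads recovered for each gene in each library. In each library the bars of both genes have the same height to within 1070 reads.

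Counts within the role sets describe few genes each and stand beside 13.5% of all tested genes called lower and 3.83% called higher, with 5122 of the 7574 below 0 and 2452 above. Among the E2s that work with many ligases, 7 members were tested, and 1 rose and 1 fell. Ube2h is the E2 of the CTLH (GID) ligase. It stood at 6.65, 6.29 and 5.95 RPKM in WT and at 3.91, 4.68 and 4.40 RPKM in KO. All KO libraries lay below all WT libraries. Its log2 fold change was -0.46 (SE 0.09, adjusted p = 0.0125), and the call was lost without KO replicate 1 or KO replicate 3 (adjusted p up to 0.0554). In its longest transcript 46.3% of 50-base stretches also occur in other genes, mostly in Gm26526. Gm26526 was listed at 0.615 to 0.824 RPKM in WT and 0.308 to 0.418 RPKM in KO, lower in KO like Ube2h, so reads could have been split between them.

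Ube2e1, an E2 with an extended N terminus, moved the other way. It stood at 2.67, 3.03 and 3.06 RPKM in WT and at 4.71, 3.50 and 4.06 RPKM in KO. Every KO library was above every WT library, and the KO values were the more spread. The log2 fold change was 0.37 (SE 0.10, adjusted p = 0.0449). The call was lost with the replicate number as a block (adjusted p = 0.0622) and when any library other than KO replicate 2 was left out (adjusted p up to 0.141). The block fit draws the difference from replicates 2 and 3 of each group alone. On the other strand Nkiras1 shares 718 exon bases with it, which is 16.1% of Ube2e1. Nkiras1 stood at 8.86 to 9.58 RPKM in WT and 9.69 to 11.3 RPKM in KO, with a log2 fold change of 0.15 (adjusted p = 0.242). It held 2750 to 4215 reads a library, and Ube2e1 735 to 1443. Reads of the shared bases may therefore be a larger part of the Ube2e1 count than of its length. That part was not tested.

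The other 5 of this set were not called. Ube2d1, a member of the broad Ube2d group, stood at 8.44, 9.35 and 9.96 RPKM in WT and 7.45, 6.66 and 8.58 RPKM in KO, so that 1 KO library reached into the WT range (log2 fold change -0.26, 95% interval -0.51 to -0.02, adjusted p = 0.124). Its relatives Ube2d2a and Ube2d3 had log2 fold changes of 0.17 (interval -0.11 to 0.44) and -0.01 (interval -0.18 to 0.15). Ube2l3, which serves HECT and RBR ligases, had 0.07 (interval -0.12 to 0.27), and it shares 1670 exon bases with Ydjc on the other strand. In its longest transcript 58.9% of 50-base stretches, read on either strand, also occur in other genes, mostly in Ydjc. Ydjc held 1225 to 1468 reads a library and Ube2l3 1701 to 2080. How many of the Ube2l3 reads come from Ydjc was not tested. Ube2e3 had 0.01 (interval -0.16 to 0.18). Ube2w, which attaches ubiquitin to the N terminus of proteins, was not tested and stood at 0.319 to 0.506 RPKM.

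The E2s that build chains on lysine 48, the usual signal for the proteasome, or sit at the endoplasmic reticulum counted 6 tested members, of which 1 fell and none rose. Ube2g1 extends such chains with cullin ligases. It stood at 9.42, 8.79 and 8.49 RPKM in WT and at 4.76, 5.52 and 5.96 RPKM in KO (means 8.90 ± 0.473 and 5.41 ± 0.610, SD, n = 3 each). The gap between the groups was wider than the range within either. These values rested on 1405 to 3005 reads a library. The log2 fold change was -0.63 (SE 0.09, adjusted p = 0.00586), and Ube2g1 was called in all 12 alternative fits (adjusted p 0.00329 to 0.0244). None of the 50-base stretches of its longest transcript occurs in another gene.

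Its namesake Ube2g2, which works in the breakdown of faulty proteins of the endoplasmic reticulum, was listed at 7.84 to 8.92 RPKM in WT and 8.18 to 9.28 RPKM in KO (log2 fold change 0.06, interval -0.13 to 0.26). Ube2j2, anchored in the same membrane, stood at 4.90, 4.87 and 4.69 RPKM in WT and 3.87, 4.29 and 4.23 RPKM in KO. Its groups did not overlap, but it was not called (-0.18, adjusted p = 0.130). Ube2j1, the other membrane-anchored E2, had -0.01 (interval -0.18 to 0.16). Ube2r2, a partner of cullin ligases, stood at 11.5, 11.8 and 12.8 RPKM in WT and 13.1, 13.1 and 15.1 RPKM in KO, all KO values above all WT values (0.18, adjusted p = 0.193). Ube2k, which builds lysine 48 chains on its own, did not overlap either, yet its means differed by little, 6.65 ± 0.103 RPKM in WT and 6.90 ± 0.111 RPKM in KO (SD, n = 3 each; 0.05, adjusted p = 0.684).

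Lysine 63 chains, used in signalling and repair, are built by Ube2n paired with Ube2v1 or Ube2v2, which lack the catalytic cysteine. None of the 3 was called, and all 3 had log2 fold changes above 0, with a median of 0.21. Ube2n stood at 3.94, 4.14 and 4.93 RPKM in WT and at 6.38, 5.22 and 5.39 RPKM in KO. All KO libraries lay above WT (0.32, SE 0.10, adjusted p = 0.0718), and it was called when the 10 most abundant genes were kept out of the totals (adjusted p = 0.0390). Ube2v1 stood at 13.1, 11.5 and 10.9 RPKM in WT and 12.3, 15.8 and 13.6 RPKM in KO, so the groups overlapped. Its log2 fold change was 0.21 (adjusted p = 0.213), and with equal medians it was called (0.33, adjusted p = 0.0334). The readthrough gene Gm20431 shares 1673 exon bases with Ube2v1 on the same strand (61.5% of Ube2v1). It followed Ube2v1 library by library, at 14.3, 12.7 and 11.9 RPKM in WT and 13.6, 17.2 and 15.1 RPKM in KO. Gm20431 held 2353, 1639 and 1848 reads in WT and 2213, 2265 and 2190 in KO. Ube2v1 held 2481, 1708 and 1942 reads in WT and 2304, 2390 and 2269 in KO. Of the stretches in the longest Ube2v1 transcript, compared as for Ube2h, 91.2% also occur in other genes, mostly in Gm20431. Whether reads were split between these genes or counted for both was not tested. The level of Ube2v1 and its calls under other scalings may therefore hold reads of Gm20431. Ube2v2 had 0.08 (interval -0.09 to 0.25).

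Of the E2s of the cell cycle and DNA repair, 4 were tested, Ube2c among them, and 1 fell. Ube2b, a mouse form of yeast Rad6 that works with Rad18 and Rnf20, was the second highest member. It stood at 45.5, 42.8 and 46.4 RPKM in WT and at 35.9, 34.6 and 37.4 RPKM in KO (means 44.9 ± 1.88 and 36.0 ± 1.38, SD, n = 3 each). The groups were well apart, with 4095 to 6747 reads a library. Ube2b fell by 0.31 on the log2 scale (SE 0.08, adjusted p = 0.0311). With equal medians it was -0.19 and no longer called (adjusted p = 0.183), and it was also not called with totals without the 10 most abundant genes, on recovered reads, with the replicate number as a block (adjusted p = 0.0606), or without any 1 of the libraries other than WT replicate 4.

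Ube2a, the second form of Rad6, stood at 2.32, 2.23 and 2.28 RPKM in WT and at 2.16, 2.14 and 2.16 RPKM in KO. The groups did not overlap, but the difference was small (-0.06, adjusted p = 0.588), and with equal medians its sign turned (0.03). Ube2s, which lengthens chains for the anaphase-promoting complex, had -0.06 (interval -0.22 to 0.10) and 0.03 with equal medians. Ube2t, of the Fanconi anaemia pathway, was under the limit for testing.

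The next set holds E2s of proteins related to ubiquitin, and Ube2z, which takes ubiquitin, was listed with them. Ube2m, the main E2 of NEDD8, which switches on cullin ligases, had the widest interval of the tested members. It stood at 19.97, 15.9 and 12.2 RPKM in WT and at 10.96, 9.96 and 19.6 RPKM in KO. KO replicate 3 was near the top of the WT range while the other KO libraries lay below it. The log2 fold change was -0.26 with an interval of -0.84 to 0.32 (adjusted p = 0.501), and without KO replicate 3 it was -0.55 (adjusted p = 0.136). Ube2f, the other NEDD8 E2, had 0.08 (interval -0.09 to 0.24), and Ube2z, which takes ubiquitin from Uba6, had -0.17 (interval -0.39 to 0.05). Ube2l6, the E2 of the interferon-induced ISG15, was not tested. It was listed at 0.726, 0.442 and 0.650 RPKM in WT and at 0.459, 1.32 and 0.836 RPKM in KO, so the groups overlapped.

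The large and atypical E2s counted 3 tested members, of which 1 fell. All 3 lay below 0, as did 5122 of the 7574 tested genes. Ube2o, which acts as E2 and ligase in one protein, stood at 3.58, 3.69 and 2.87 RPKM in WT and at 2.28, 2.66 and 2.45 RPKM in KO. WT replicate 4 lay near the KO values, and the groups did not overlap. Ube2o fell by 0.34 on the log2 scale (SE 0.10, adjusted p = 0.0489). The call was lost without a filter on low values, with equal medians (-0.24, adjusted p = 0.0924), with totals without the 10 most abundant genes, on recovered reads, and without any 1 of the libraries other than WT replicate 4. Ube2q1 stood at 1.73, 1.64 and 1.40 RPKM in WT and 1.26, 1.32 and 1.34 RPKM in KO, with no overlap (-0.16, adjusted p = 0.155). Ube2q2 had -0.02 (interval -0.31 to 0.26).

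Of the pseudogenes, Ube2d-ps stood at 2.55 to 3.17 RPKM over all libraries (log2 fold change 0.10, interval -0.08 to 0.29). Ube2n-ps1 stood at 1.75 to 2.73 RPKM (0.19, interval -0.03 to 0.41). All 50-base stretches of Ube2n-ps1 occur in Ube2n as well, so their reads may have been split, and Ube2n-ps1 rested on only 54 to 86 reads.

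**Figure D4:**
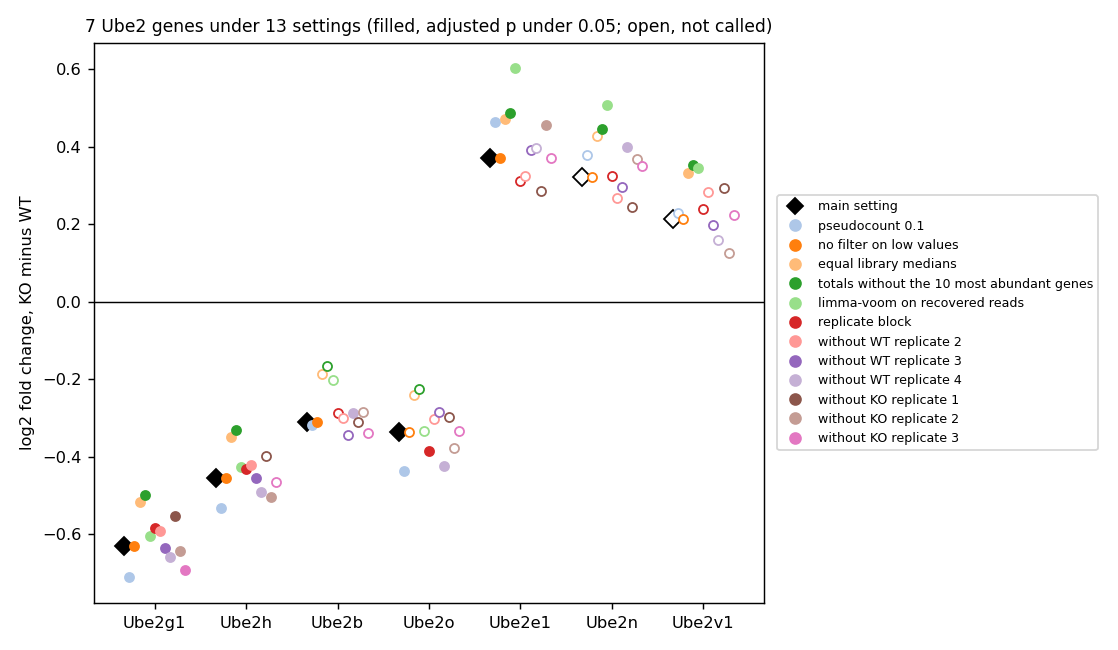
The log2 fold changes (KO minus WT) of 7 Ube2 genes are drawn under the main setting (black diamonds) and 12 alternatives, filled where the adjusted p was under 0.05 and open where it was not. Ube2g1 is filled throughout and Ube2h in 10 of 12 alternatives, whereas Ube2b and Ube2o are filled in 3 of 12 and Ube2e1 in 6.

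Genes before and after the E2 step were read from lists of 89 symbols, of which 60 were tested. Of these 60, 8 were called, 1 higher and 7 lower, a share no higher than the 17.3% of all tested genes (3.83% higher and 13.5% lower), with a median log2 fold change of -0.08, close to the -0.09 of all tested genes. Among the ubiquitin genes themselves, Ubb, a polyubiquitin gene, stood at 665, 602 and 499 RPKM in WT and 382, 382 and 394 RPKM in KO (-0.60, SE 0.11, adjusted p = 0.0127). The KO libraries were alike and the WT libraries spread, with WT replicate 4 the lowest of WT. The call of Ubb was lost without KO replicate 1 or KO replicate 3 (adjusted p up to 0.0547). Rps27a, which encodes ubiquitin fused to a ribosomal protein, had -0.11 (adjusted p = 0.522).

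None of the 6 tested E1 genes and none of the 6 tested E2s with other names was called. Their medians were both 0.01. The lowest p among the E1 genes was that of Sae1, a subunit of the SUMO E1, at 3.75 to 5.75 RPKM over all libraries (0.29, adjusted p = 0.0588). Cdc34, the cullin E2 related to Ube2r2, stood at 31.1 to 39.3 RPKM (-0.01, adjusted p = 0.945), a level close to that of Ube2b.

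Among the ligases, the 18 tested RING and U-box genes gave 1 higher and 2 lower calls, the 14 tested cullin ligase genes 3 lower, and the 12 tested HECT ligases none. Over all tested genes 13.5% were called lower and 3.83% higher, and lists of this size are given as counts only. Trim55, a RING ligase of the sarcomere, rose (0.36, adjusted p = 0.0387), but the call was lost when any 1 of the 6 libraries was left out (adjusted p 0.0555 to 0.110). Ube4a, a U-box factor that extends chains, fell from 2.83 ± 0.817 to 1.26 ± 0.105 RPKM (SD, n = 3 each; -0.74, adjusted p = 0.0147). Prpf19, a U-box ligase of the spliceosome, fell (-0.41, adjusted p = 0.0104), as did Cul4b (-0.53, adjusted p = 0.0223) and Skp1a (-0.29, adjusted p = 0.0489), both parts of cullin ligases. The Skp1a call was lost with equal medians (-0.17, adjusted p = 0.326), when the 10 most abundant genes were kept out of the totals (-0.15, adjusted p = 0.333), on recovered reads (-0.19, adjusted p = 0.243), without a filter (adjusted p = 0.0517) and without any 1 of the libraries other than WT replicate 2. The Cul4b call was lost without WT replicate 3 or any 1 KO library (adjusted p up to 0.0846), that of Ube4a without KO replicate 1 or KO replicate 3 (adjusted p up to 0.0581), and that of Prpf19 without KO replicate 3 (adjusted p = 0.0504). Fbxo32, the muscle ligase also called atrogin-1, stood at 290, 231 and 137 RPKM in WT and 39.7, 64.0 and 62.1 RPKM in KO (-1.93, SE 0.28, adjusted p = 0.00547), and it was called in all 12 alternative fits. Trim63, the other usual marker of wasting, was not called (-1.10, adjusted p = 0.104). Rnf20, a ligase that pairs with Ube2b, was not called.

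**Figure D5:**
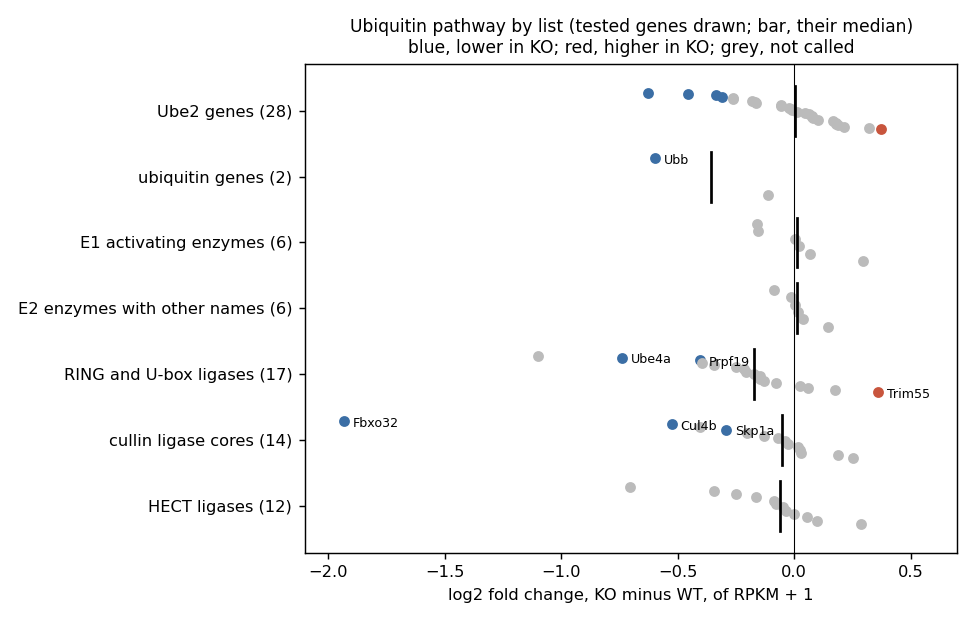
Each point is the log2 fold change of RPKM + 1 (KO minus WT) of 1 tested gene, by list, with the number drawn in brackets, a bar at the list median, blue for lower and red for higher calls. The Ube2 genes drawn lie around a median of 0.00, and Fbxo32 is the lowest point at -1.93.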

How the data were processed

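The authors sequenced gastrocnemius RNA after fragmenting the mRNA and priming cDNA with random hexamers, per the labels' protocols. Sample titles gave groups and replicate numbers, and GRCm39 is the build named in the submitters' processing notes. Aligner, counter, annotation and use of the strand were not given in the sources used here. The authors deposited 1 value per gene and library under a header that has no unit. These deposited values were taken as RPKM from the values themselves: multiplied by gene length and counted total, they became whole reads (within 0.002) in all 6 libraries for 11812 of 11815 genes (99.97%), including all 32 members. For 27 members the length was that of GENCODE M21 and for 5 (Ube2n, Ube2l3, Ube2d2a, Ube2v2 and Ube2t) it was inferred. The deposited log2 fold change and log2 CPM, the F score and the p-value and FDR columns are the authors' own, per the file headers, and their test was not given in the sources used here.

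Testing took the 7574 genes with 1 RPKM or more in 3 or more libraries. It used limma 3.58.1 in R 4.3.3 (limma-trend with empirical Bayes moderation) on log2(RPKM + 1), with a single term for genotype, and p-values were adjusted over all tested genes by Benjamini-Hochberg, with calls at 0.05. Fold changes are on that scale, where changes of low genes come out too small; SDs are of RPKM. On simulated data (7464 genes, 192 changed), 5.21% of 192 calls were false. Of genes changed 1.5-fold, 84.1% were recovered, as were 100% of those changed 2-fold or 4-fold. Each simulated gene was drawn independently. Changes went up or down at random, and the simulated libraries held no shift in composition between the groups. The simulation therefore does not cover errors of scaling, on which several of the calls above depend. Alternatives were a pseudocount of 0.1, no filter, equal library medians over tested genes, totals without the 10 most abundant genes, limma-voom on the recovered reads, replicate number as a block, an unadjusted p, and each replicate left out. In the block fit WT replicate 4 and KO replicate 1 stand alone under their numbers. Its genotype difference therefore rests on replicates 2 and 3 of each group.

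Results of 4 genes, 1 of them a called member, are not reported here and not drawn, but counts and medians over the family and the lists include them. The other members may be named; full statistics went to called members, members whose groups did not overlap, Ube2c with its neighbours and the 3 members highest in RPKM, and called genes were named from the pathway lists. Other pathway genes named (Rps27a, Sae1, Cdc34, Trim63 and Rnf20) were chosen after their values were seen. The members and lists were chosen with earlier results of these data known. Exon overlaps and shared 50-base stretches came from GENCODE M21 on GRCm38, an older build than that of the notes, and promoters from RefSeq (GRCm38.p6). No marker that is absent from the table was analysed here. Sums and figures used matplotlib 3.10.9, scipy 1.17.1, numpy 2.4.6, pandas 2.3.3 and Python 3.11.15.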

Additional observations from a re-analysis of the deposited data

How the results depend on the processing

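The number of Ube2 genes called was 6 with a pseudocount of 0.1, 5 without a filter, 4 with equal medians, 5 with totals without the 10 most abundant genes, 5 with limma-voom and 9 at an unadjusted p, against 6 in the report. Over all genes of each fit the share was 17.5%, 15.6%, 17.2%, 17.1%, 18.4% and 33.4% in the same order. Leaving out 1 replicate gave 1 to 6 calls: 1 without KO replicate 1 or KO replicate 3, 2 without WT replicate 2 or WT replicate 3, 3 without KO replicate 2 and 6 without WT replicate 4. Over all tested genes the called share moved too, to 7.04% and 6.22%, 14.2% and 9.24%, 8.74% and 21.6% in the same order, against 17.3%. For the 60 other pathway genes leaving out 1 replicate gave 1 to 12 calls against 8. Of these 60, 21 passed an unadjusted p, beside 33.4% of all tested genes. With the replicate number as a block, 3 Ube2 genes (Ube2g1, Ube2h and Ube2o) and 15 other pathway genes were called. Over all tested genes 20.4% were called in this fit. Only the numbers 2 and 3 are shared by both groups. WT replicate 4 and KO replicate 1 have no partner, so they do not inform the genotype difference of the block fit. Deviations of same-numbered libraries correlated at 0.479 and 0.270, but the labels do not say that a number marks a shared source. Unmatched WT replicate 4 and KO replicate 1 correlated at 0.431. Of the log2 fold changes of named genes, 347 kept direction and side of the threshold over all alternatives, 66 kept direction but lost the call, 6 gained one and 25 turned sign, all in members that were not called. With equal medians, totals without the 10 most abundant genes and limma-voom, the turned values were 0.0948, 0.112 and 0.104 for Ube2j1, 0.0844, 0.1004 and 0.0994 for Ube2d3, 0.0886, 0.106 and 0.0880 for Ube2q2, 0.0327, 0.0474 and 0.0402 for Ube2a, and 0.0342, 0.0496 and 0.0400 for Ube2s. With the replicate block, Ube2q2 turned to 0.0261. Without 1 replicate, Ube2j1 ranged from -0.0276 to 0.0151, Ube2d3 from -0.0240 to 0.00617, Ube2q2 from -0.117 to 0.0819 and Ube2e3 from -0.0260 to 0.0619. The difference in the log2 ratio of Ube2c to Tnnc2 ranged from -0.000102 to 3.77e-05 and turned sign without KO replicate 2. The causes were not tested. Depth limits the members under 1 RPKM, which had as few as 46 reads, and intervals over 3 libraries a group cover only the spread between these libraries.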

Other observations

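The authors' deposited table gives its own comparison of KO with WT, which was not used above. In the authors' deposited table no Ube2 gene had an FDR under 0.05 (lowest 0.0592, for Ube2g1), against 191 of all genes (1.62%). At an unadjusted p under 0.05 the authors' deposited table lists 7 members, 5 with a positive and 2 with a negative log2 fold change. The share of all genes under that p was not computed here. Neither this count nor its split is therefore read as a result about the members. The deposited log2 fold changes were -0.46 for Ube2g1, -0.36 for Ube2h, 0.48 for Ube2e1, 0.29 for Ube2v1 and 0.39 for Ube2n. For Ube2b and Ube2o, called lower by limma above, they were nearer to no change, at -0.16 (authors' FDR 0.281) and -0.20 (authors' FDR 0.548). The log2 fold change in the authors' deposited table had another sign than the log2 ratio of the mean RPKM of its own 6 columns for 5 members (Ube2j1, Ube2m, Ube2d3, Ube2q2 and Ube2s). For Ube2m it was 0.30 in the authors' deposited table and -0.24 from the RPKM means. Over all genes the sign differed for 19.1%, and the authors' deposited table lay higher by a median of 0.14 (SD 0.15) on the log2 scale.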
